A study of Mus musculus with 6 samples.

Results

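The 10 kallikrein-related peptidase genes *Klk4*, *Klk5*, *Klk6*, *Klk7*, *Klk8*, *Klk9*, *Klk10*, *Klk11*, *Klk13* and *Klk14* were followed as 10 of the 24062 genes counted. The data were bulk RNA-seq of mouse dorsal root ganglion and neurofibroma tissue. The genes were gathered around *Klk9*, which was selected on its decrease in the same comparison, so the values of the 10 members between genotypes are given as descriptions, with no p-value, and counts of members past a threshold describe the family and support nothing. Libraries came from 3 Nf1fl/fl;DhhCre mice and from 3 mice labelled Rx1flfl;Rx3fl/fl;DhhCre, which the study describes as floxed for *Nf1* too and which are called DKO-labelled (double knockout) here. By that description both groups carry floxed *Nf1*, and they differ in the floxed alleles of *Runx1* and *Runx3*, transcription factors that bind DNA together with CBFB. The strain background is C57BL/6-I129, and no age is given in the labels.

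Cre recombinase under the *Dhh* promoter acts, within the nerve, in the Schwann cell (SC) lineage, so that cells of other lineages in the sampled tissue, such as neurons and immune cells, are not its target. Recombination was not measured in these data. The labels name the tissue dorsal root ganglion (DRG) in one genotype and neurofibroma tumor in the other, whereas the protocol names DRG/tumors for both. Sensory neuron markers were present in all 6 libraries, at a summed 1258 to 2535 scaled counts (CPM, counts brought to a common library size) in Nf1fl/fl;DhhCre and 6218 to 14030 CPM in the DKO-labelled libraries. All 13 of these markers passed the thresholds upward. The tissue label and the neuronal content thus cannot be told apart from genotype.

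Tissue kallikreins are small secreted serine proteases with a trypsin-like or chymotrypsin-like cut, made as inactive precursors and switched on when another protease removes a short propeptide. They are best known from skin, where *Klk5*, *Klk7* and *Klk14* products act in a cascade that sheds the outer cell layer, and from the nervous system, where *Klk6* (neurosin) and *Klk8* (neuropsin) products cut myelin and synaptic proteins. *Klk9* is one of the least characterized members. The genes lie side by side in 1 cluster, and all 10 members are read from the plus strand of chromosome 7 between positions 43690418 and 43885804 of GRCm38, a span of 195.4 kb. Their order is *Klk14*, *Klk13*, *Klk11*, *Klk10*, *Klk9*, *Klk8*, *Klk7*, *Klk6*, *Klk5* and *Klk4*, with *Klk12*, which is no member, between *Klk13* and *Klk11*.

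The sequences just upstream of the 4 members that were lower without overlap between genotypes are shown because RUNX factors, whose genes are floxed in the DKO-labelled mice, recognize a short DNA core. Each run is the 250 bases before the start of the gene in RefSeq (GRCm38.p6), 5′ to 3′ on the plus strand, in lower case. Capitals mark a match to the RUNX cores TGTGGT or TGCGGT on either strand. The windows are chr7:43712317-43712566 for *Klk13*, chr7:43791641-43791890 for *Klk9*, chr7:43797327-43797576 for *Klk8* and chr7:43811044-43811293 for *Klk7*.
Klk13: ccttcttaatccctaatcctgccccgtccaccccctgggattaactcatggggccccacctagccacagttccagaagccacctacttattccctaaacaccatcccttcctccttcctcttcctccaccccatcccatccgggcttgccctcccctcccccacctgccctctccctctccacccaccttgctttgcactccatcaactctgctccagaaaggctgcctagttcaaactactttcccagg
Klk9: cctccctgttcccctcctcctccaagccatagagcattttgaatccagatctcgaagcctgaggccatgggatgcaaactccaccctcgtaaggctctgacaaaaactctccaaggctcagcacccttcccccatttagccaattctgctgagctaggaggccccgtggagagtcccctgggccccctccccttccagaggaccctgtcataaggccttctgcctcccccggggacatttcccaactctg
Klk8: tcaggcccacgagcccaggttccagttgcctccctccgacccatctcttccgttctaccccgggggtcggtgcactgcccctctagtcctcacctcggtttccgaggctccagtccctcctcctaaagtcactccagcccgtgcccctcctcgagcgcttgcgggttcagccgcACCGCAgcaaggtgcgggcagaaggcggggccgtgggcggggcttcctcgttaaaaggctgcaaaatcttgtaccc
Klk7: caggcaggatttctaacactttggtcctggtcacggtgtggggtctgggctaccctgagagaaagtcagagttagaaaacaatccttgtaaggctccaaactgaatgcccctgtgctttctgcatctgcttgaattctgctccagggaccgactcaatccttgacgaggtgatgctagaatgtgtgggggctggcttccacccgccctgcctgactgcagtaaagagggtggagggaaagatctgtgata

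The cores searched were TGTGGT and TGCGGT on both strands, and the AP-1 motif TGANTCA on both strands. No other motif was searched and the motifs do not overlap each other here. The shorter core TGTGG, by which the paper names its putative RUNX sites in *Pmp22*, was thus not searched. It occurs unmarked in the printed windows of *Klk7* and, on the minus strand, of *Klk13*. Its share over all windows was not counted. RefSeq gave 12 such windows for the 10 members. TGTGGT was in 0 of the 12, against 14% of the 32851 mouse windows of this length. TGCGGT was in 1 of the 12, against 5.1% of all windows, and this match lay 76 bases before the start of *Klk8*. Either core was in 1 of the 12, against 18.6% of all windows, and TGANTCA was in 0, against 6.75%. A match is a string of letters, and its absence says only that the window does not hold those letters.

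The libraries held between 12439296 and 16682194 counts. A floor for low values was set at 3 counts, which amount to 0.179 to 0.247 CPM. *Runx1* was measured first, although counts over the whole gene in bulk tissue cannot show whether it was deleted in the SC lineage. It stood at 131, 141 and 172 CPM in Nf1fl/fl;DhhCre against 84.0, 78.9 and 185 CPM in the DKO-labelled libraries. DKO-labelled replicate 3 was therefore the highest of the 6 libraries, and the *Runx1* log2 fold change was -0.44 (SE 0.32, limma-voom with Benjamini-Hochberg adjusted p = 0.370). Without that library the *Runx1* log2 fold change was -0.85 (limma-voom with Benjamini-Hochberg adjusted p = 0.0290). Without each other library in turn it was -0.49 to -0.21 (limma-voom with Benjamini-Hochberg adjusted p of 0.422 to 0.718). The library was picked on its *Runx1* value, so nothing is read from the fit without it. Sensory neuron markers summed to 14030 CPM in that library and to 6218 and 7181 CPM in the other DKO-labelled ones, and their part in *Runx1* was not tested. *Runx3* stood at 19.9, 15.1 and 29.9 against 13.6, 10.3 and 12.2 CPM, without overlap (log2 fold change -0.79, SE 0.30, limma-voom with Benjamini-Hochberg adjusted p = 0.104). Skeletal muscle markers summed to 1928 CPM in Nf1fl/fl;DhhCre replicate 2 and to 10920 CPM in DKO-labelled replicate 2, but only to between 5.39 and 65.8 CPM in the other four libraries. *Xist* and *Ddx3y* counts showed 1 male among the Nf1fl/fl;DhhCre mice, replicate 2, and 2 males, replicates 2 and 3, among the DKO-labelled ones. The label of DKO-labelled replicate 3 names another sequencing run than those of the remaining libraries, whereas its deposited column carries another mouse number. That run may therefore belong to the counts of DKO-labelled replicate 2 instead.

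*Klk9*, from 43791891 to 43796757 on chromosome 7, was counted 1293, 796 and 1163 times in Nf1fl/fl;DhhCre and 58, 30 and 97 times in the DKO-labelled libraries. As CPM the values were 89.7, 47.4 and 74.6 against 4.62, 2.47 and 6.40. Every Nf1fl/fl;DhhCre library was thus far above every DKO-labelled library, and replicate 2 was the lowest library in each genotype. The means were 70.6 ± 21.4 CPM (SD, n = 3) and 4.50 ± 1.97 CPM (SD, n = 3), a log2 fold change of -3.97 (SE 0.47), or 15.7-fold lower. In order of decrease *Klk9* took place 46 among the 15652 genes that passed the filter on low counts. Its mean level was above that of 81.1% of these genes in Nf1fl/fl;DhhCre and of 22.7% in the DKO-labelled libraries. In a bulk sample, fewer cells of a type that expresses a gene and less RNA per cell cannot be told apart. Of 8 general SC markers, 3 passed the thresholds upward and 0 downward in limma-voom, edgeR and DESeq2 alike, with 1 lower at an unadjusted p under 0.05 and a median log2 fold change of 0.03. Most tested markers of 2 other cell types were lower as *Klk9* was. Past the thresholds downward were 9 of 11 macrophage markers (median log2 fold change -2.16) and 4 of 7 fibroblast markers (median -1.09). Of 7 perineurial and leptomeningeal markers tested, 1 passed downward and 0 upward (median -0.16), whereas edgeR called 2 lower and DESeq2 3. That list summed to 756 to 1466 CPM in Nf1fl/fl;DhhCre and to 380 to 602 CPM in the DKO-labelled libraries. The part of these cell types in the *Klk9* values was not tested.

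Leaving out each library in turn gave *Klk9* log2 fold changes of -4.30 to -3.61, given as a description of its spread over libraries. The largest came without DKO-labelled replicate 3, the library in which *Runx1* was not lower. Without DKO-labelled replicate 2, which was rich in muscle RNA, the value was -3.61, and without Nf1fl/fl;DhhCre replicate 2 it was -4.18. Among females, the Nf1fl/fl;DhhCre values of 89.7 and 74.6 CPM stood against 4.62 CPM in 1 DKO-labelled library. Among males, 47.4 CPM in 1 Nf1fl/fl;DhhCre library stood against 2.47 and 6.40 CPM.

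**Figure D1:**
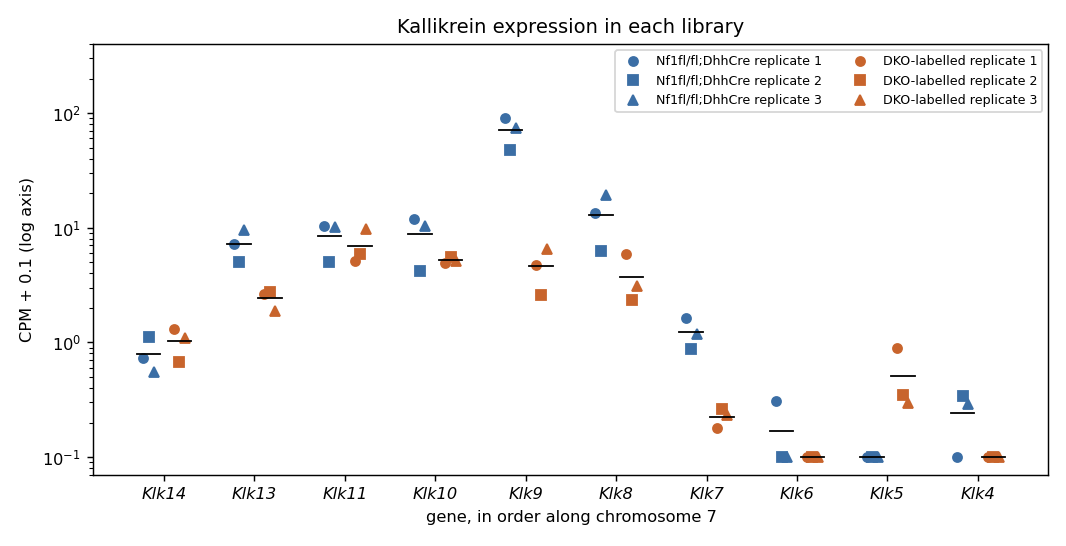
Expression of the 10 kallikrein members in each library, as CPM plus 0.1 on a log axis, with genes in their order along chromosome 7. Marker shapes give the replicate and short lines the group means. *Klk9* had the highest values in Nf1fl/fl;DhhCre, 47.4 to 89.7 CPM, and 2.47 to 6.40 CPM in the DKO-labelled libraries.

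The threshold for a differentially expressed gene (DEG) was an adjusted p below 0.05 and a change of more than 2-fold, which 13.4% of all genes tested passed in either direction and 5.36% passed downward. Among the 7 members tested, 3 (*Klk7*, *Klk9* and *Klk13*) passed downward and 0 upward. Since *Klk9* chose the family in this contrast, nothing is read from that count. The groups did not overlap, with the DKO-labelled libraries lower, in 4 members (*Klk7*, *Klk8*, *Klk9* and *Klk13*), a pattern that 20.5% of all genes tested showed.

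*Klk8*, the neuropsin gene, lies directly downstream of *Klk9* (43797577 to 43803826) and was the next most abundant member in Nf1fl/fl;DhhCre. It stood at 13.4, 6.14 and 19.1 CPM in Nf1fl/fl;DhhCre and at 5.74, 2.22 and 2.97 CPM in the DKO-labelled libraries. The groups stood apart, but narrowly, since the lowest of one and the highest of the other differed little. Its log2 fold change was -1.76 (SE 0.61). *Klk8* is also the member whose printed window holds the TGCGGT core, as its complement.

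*Klk13*, a trypsin-like member at 43712567 to 43727534, stood at 7.07, 4.89 and 9.37 CPM in Nf1fl/fl;DhhCre and at 2.55, 2.63 and 1.78 CPM in the DKO-labelled libraries. All 3 libraries of the first group were above all 3 of the other, with a log2 fold change of -1.58 (SE 0.41). *Klk7*, the chymotrypsin-like enzyme of the skin cascade (43811294 to 43816359), was counted 22, 13 and 17 times in Nf1fl/fl;DhhCre and 1, 2 and 2 times in the DKO-labelled libraries. It passed the filter on low counts only through the Nf1fl/fl;DhhCre libraries, so that it had to differ in order to be tested. Its log2 fold change was -2.79 (SE 0.76), resting on 5 counts in all in the DKO-labelled libraries. In the 6 fits that left out 1 library the log2 fold change was -3.005 to -2.55 for *Klk7* and -1.81 to -1.33 for *Klk13*, and both were past the DEG threshold in 1 of these fits, that without Nf1fl/fl;DhhCre replicate 2.

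The groups overlapped in *Klk10*, *Klk11* and *Klk14*. *Klk10* (43781035 to 43785410), a member described as lost in several carcinomas, stood at 11.8, 4.11 and 10.2 CPM in Nf1fl/fl;DhhCre and at 4.86, 5.43 and 5.02 CPM in the DKO-labelled libraries. The groups overlapped because of Nf1fl/fl;DhhCre replicate 2, which was the lowest of the 6 libraries, and the log2 fold change was -0.60 (SE 0.46). Without that replicate it was -1.06, past the DEG threshold. Without each other library in turn it was -0.64 to -0.305, and not past the threshold. The replicate was picked on its *Klk10* value, so nothing is read from the fit without it. *Klk11* (43774604 to 43779263), known from brain and prostate, stood at 10.2, 4.95 and 10.1 CPM against 5.02, 5.76 and 9.70 CPM. Its values overlapped, with a log2 fold change of -0.23 (SE 0.40). *Klk14* (43690418 to 43695536), a trypsin-like enzyme of the skin cascade, was low, at 0.624, 1.01 and 0.449 CPM against 1.20, 0.576 and 0.990 CPM. It was the only 1 of the 7 tested members whose fitted log2 fold change was positive, at 0.41 (SE 0.60), with overlapping groups.

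The remaining 3 members were too low to be tested and are given as counts. *Klk4*, the enamel matrix protease, was counted 0, 4 and 3 times in Nf1fl/fl;DhhCre and 0 times in every DKO-labelled library. *Klk6*, the neurosin gene, which oligodendrocytes of the central nervous system express strongly, was counted 3, 0 and 0 times and 0 times in every DKO-labelled library. *Klk5*, the enzyme that starts the skin cascade, went the other way, with 0 counts in every Nf1fl/fl;DhhCre library and 10, 3 and 3 counts in the DKO-labelled ones. No fold is given for any of them, since one group was at 0 and most values of the other were at about 3 counts or fewer.

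Per kilobase of annotated exon, which allows genes to be compared, the order of the mean levels in Nf1fl/fl;DhhCre was *Klk9* at 47.8 ± 14.5, *Klk8* at 8.35 ± 4.203, *Klk10* at 6.34 ± 2.95, *Klk11* at 5.73 ± 2.04, *Klk13* at 3.10 ± 0.975, *Klk7* at 0.596 ± 0.199 and *Klk14* at 0.547 ± 0.227 CPM per kb (SD, n = 3 for each). The 3 libraries of *Klk9* were all above those of *Klk8*, whereas *Klk8*, *Klk10*, *Klk11* and *Klk13* overlapped each with the next, as did *Klk7* and *Klk14*. In the DKO-labelled libraries the order was *Klk11* at 4.65 ± 1.72, *Klk10* at 3.72 ± 0.213, *Klk9* at 3.05 ± 1.34, *Klk8* at 2.37 ± 1.20, *Klk13* at 1.01 ± 0.204 and *Klk14* at 0.724 ± 0.248 CPM per kb (SD, n = 3 for each). There *Klk9* was in place 3 and overlapped with its neighbours in the order on both sides.

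*Klk9* made up most of the kallikrein counts in one genotype and a minor share in the other. It held 66.7, 68.2 and 59.7% of the members' summed counts in Nf1fl/fl;DhhCre and 18.6, 12.7 and 23.5% in the DKO-labelled libraries. The other 9 members summed to 44.8, 22.1 and 50.4 CPM against 20.2, 17.02 and 20.8 CPM. Their sums did not overlap, although Nf1fl/fl;DhhCre replicate 2 was close to the other genotype. That replicate was the lowest of its genotype in 6 of the 7 tested members, all but *Klk14*. It was also the male of its genotype and the one with muscle RNA, and the part of either in the lower values was not tested.

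**Figure D2:**
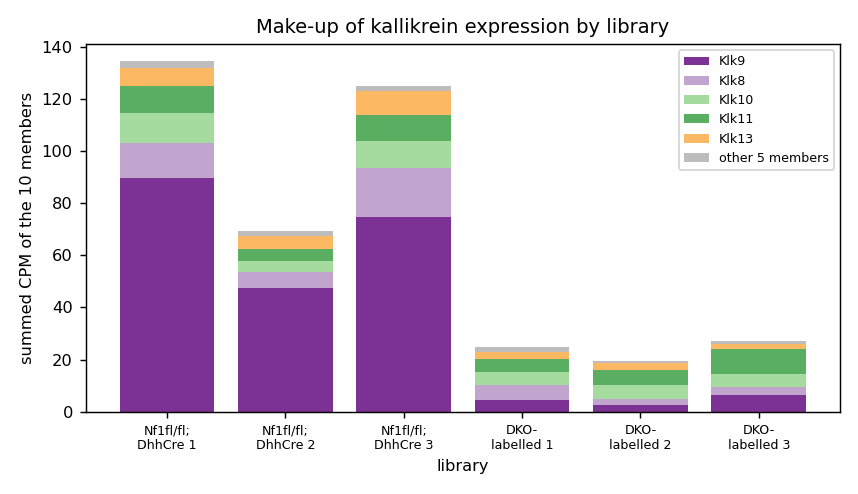
Summed CPM of the 10 kallikrein members in each of the 6 libraries, with each bar split by gene. The bars reach 134.5, 69.5 and 125 CPM in Nf1fl/fl;DhhCre and 24.9, 19.5 and 27.2 CPM in the DKO-labelled libraries, and the *Klk9* segment is the tallest in the first 3 bars only.

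Genes of a tight cluster can share reads with near-identical copies, so each member's annotated transcripts were cut into every 50-base window and searched for in the transcripts of all other genes (GENCODE M21). *Klk9* shared 0 of its 1427 windows, and *Klk4*, *Klk5*, *Klk6*, *Klk7*, *Klk10*, *Klk11* and *Klk13* shared 0 too. *Klk8* shared 21.7% of its windows, all with *2310002F09Rik*, a gene on the minus strand whose exons overlap 382 bases of *Klk8* and 287 bases of *Klk14*. For *Klk14* the shared portion was 21%, with *2310002F09Rik* and with a repeat found in many genes. The libraries were made with a kit that does not mark strand, so the reads of these overlaps cannot be told apart. *2310002F09Rik* itself was counted 184, 75 and 103 times in Nf1fl/fl;DhhCre and 46, 80 and 206 times in the DKO-labelled libraries. Its groups overlapped and its log2 fold change was 0.02 (SE 0.56, limma-voom with Benjamini-Hochberg adjusted p = 0.989), with a sign that turned under several settings.

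Of 16 kallikrein genes outside the members, 11 had no count in any library, 1 was tested and 0 passed the DEG threshold, in limma-voom, edgeR or DESeq2, or at an unadjusted p under 0.05. The tested gene was *Klk12*, within the cluster at 43768897 to 43773585, which was counted 84, 38 and 56 times in Nf1fl/fl;DhhCre and 25, 14 and 73 times in the DKO-labelled libraries. Its groups overlapped (log2 fold change -0.59, SE 0.60, limma-voom with Benjamini-Hochberg adjusted p = 0.526). *Klk1*, the classical tissue kallikrein, was counted 4, 0 and 4 times against 4, 27 and 22 times. *Klk1b4*, *Klk1b21* and *Klk1b27* had at most 5 counts in any library.

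To see how far the difference extended along the chromosome, the 29 genes within 500 kb of the cluster were examined, of which 21 were tested. Among them 2 rose, 3 fell and 16 did not pass, so that 5 of 21 stood beside 13.4% of all genes tested and the 3 that fell beside 5.36%, with a median log2 fold change of -0.41 beside 0.02 over all genes tested. *Siglece*, a sialic acid receptor of myeloid cells 131.7 kb before *Klk9*, stood at 17.2, 17.3 and 44.5 CPM against 3.11, 1.32 and 2.25 CPM (log2 fold change -3.46, SE 0.73, limma-voom with Benjamini-Hochberg adjusted p = 0.0214). *Cd33*, a related myeloid receptor, had a log2 fold change of -1.85 (SE 0.49, limma-voom with Benjamini-Hochberg adjusted p = 0.0390). On leaving out single libraries, *Siglece* was past the threshold in 2 of the 6 fits (limma-voom with Benjamini-Hochberg adjusted p of 0.0201 to 0.072), those without Nf1fl/fl;DhhCre replicate 2 or 3, and *Cd33* in 1 (0.0118 to 0.122), that without Nf1fl/fl;DhhCre replicate 2. *Ceacam18*, an adhesion family gene, fell by 3.40 on the log2 scale (SE 0.87, limma-voom with Benjamini-Hochberg adjusted p = 0.0358). With 21, 22 and 27 counts against 0, 2 and 5, it passed the filter on low counts only through the group where it was high. It was past the threshold in 0 of the 6 fits that left out 1 library, with limma-voom Benjamini-Hochberg adjusted p of 0.0543 to 0.121. The log2 fold change of *Ceacam18* in these fits ran from -4.065 to -2.397.

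The 2 neighbours that rose were *EU599041*, from 0, 6 and 15 to 33, 46 and 56 counts, and *Syt3*, a synaptotagmin named to complete the count, with a log2 fold change of 1.07 (SE 0.30, limma-voom with Benjamini-Hochberg adjusted p = 0.0476). *EU599041* needed the DKO-labelled libraries, where it was high, to pass the filter on low counts. It was not past the threshold with edgeR (quasi-likelihood Benjamini-Hochberg adjusted p = 0.0626) or in any of the 6 fits that left out 1 library (limma-voom Benjamini-Hochberg adjusted p of 0.0629 to 0.0943). The log2 fold change of *EU599041* in those 6 fits ran from 2.487 to 4.899. *Syt3* was past it neither with library size only, edgeR or every gene with a count (Benjamini-Hochberg adjusted p of 0.0508 to 0.0597, limma-voom but for edgeR) nor in any fit that left out 1 library (limma-voom Benjamini-Hochberg adjusted p of 0.0519 to 0.116). *Ctu1*, next to the cluster on the *Klk14* side and named after its values were seen, stood at 5.90, 3.93 and 5.003 against 2.63, 4.36 and 5.54 CPM, with overlap. Macrophage markers moved in the same direction as the myeloid receptors, with 9 of 11 lower, 0 higher and summed levels of 1182 to 2248 CPM against 216 to 508 CPM, and their part in the neighbours' values was not tested. The count of neighbours past the threshold went to between 0 and 4 when single libraries were left out, and was 0 without Nf1fl/fl;DhhCre replicate 1, without DKO-labelled replicate 1 or without DKO-labelled replicate 2, and 1 without either replicate 3.

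**Figure D3:**
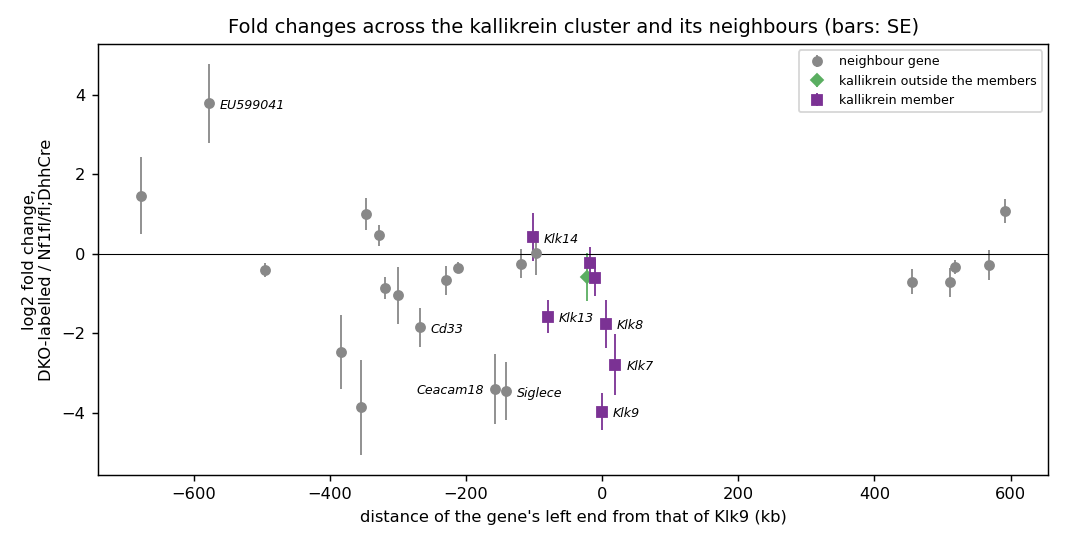
Log2 fold change (DKO-labelled over Nf1fl/fl;DhhCre) of every tested gene within 500 kb of the cluster, by the distance in kb between its left end and that of *Klk9*, with bars for the SE. The members span from *Klk9* at -3.97 to *Klk14* at 0.41, and the neighbours past both thresholds downward are *Siglece* at -3.46, *Ceacam18* at -3.40 and *Cd33* at -1.85. *Nkg7*, without a name in the plot and named after its values were seen, is lower still at -3.87 (SE 1.20). It passed the filter on low counts only through the group where it was high, with 11, 24 and 58 counts against 4, 0 and 1, and did not pass the thresholds.

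The genes that act on or with kallikreins were taken as 4 lists, namely inhibitors, other proteases of the extracellular space, receptors and cut proteins. Together they held 46 genes, of which 29 were tested, 2 rose, 7 fell and 20 did not pass, with a median log2 fold change of -1.10. DEGs made up 13.4% of all genes tested, so that 9 of 29 is set beside that share with no test of the lists.

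Among 14 inhibitors, 9 were tested, 2 fell and 0 rose, with a median of -0.88. Upward, 1 inhibitor had an unadjusted p under 0.05, and edgeR and DESeq2 called 0. This was *Serpinb6a*, a serpin of the cell interior named after its values were seen, at 54.5, 64.1 and 48.8 CPM against 83.0, 83.6 and 109 CPM. Its groups did not overlap (limma-voom with Benjamini-Hochberg adjusted p = 0.0291), and its change, a log2 fold change of 0.72 (SE 0.17), was under 2-fold. *Serpine2*, the protease nexin that SCs secrete and that blocks trypsin-like proteases, stood at 444, 321 and 451 CPM in Nf1fl/fl;DhhCre and at 145, 99.3 and 126 CPM in the DKO-labelled libraries. Every library of the first group was above the other group (log2 fold change -1.71, SE 0.20, limma-voom with Benjamini-Hochberg adjusted p = 0.00764). *Serping1*, the C1 inhibitor, fell by 1.18 on the log2 scale (SE 0.21, limma-voom with Benjamini-Hochberg adjusted p = 0.0145). The fibroblast markers (4 of 7) and macrophage markers (9 of 11) that passed downward moved with both genes, and their part in these values was not tested. *Spink5*, the skin inhibitor of *Klk5*, *Klk7* and *Klk14* products, was named after its values were seen and was at most 0.139 CPM in any library.

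Of 10 other proteases, plasminogen activators, membrane serine proteases and matrix metalloproteinases, 7 were tested, 2 fell and 0 rose, with a median of -1.28. Upward, 0 had an unadjusted p under 0.05, and edgeR and DESeq2 called 0 as well. *Mmp2*, a gelatinase of fibroblasts and other stromal cells, stood at 484, 265 and 294 CPM against 80.3, 65.0 and 64.3 CPM (log2 fold change -2.27, SE 0.25, limma-voom with Benjamini-Hochberg adjusted p = 0.00764). *Mmp14*, the membrane metalloproteinase that activates the *Mmp2* product, stood at 142, 105 and 120 CPM against 44.6, 30.3 and 42.0 CPM (log2 fold change -1.65, SE 0.19, limma-voom with Benjamini-Hochberg adjusted p = 0.00764). Neither gene overlapped between genotypes. Fibroblast markers moved with these genes, 4 of 7 lower and 0 higher, at a summed 7819 to 8587 CPM in Nf1fl/fl;DhhCre and 2865 to 4607 CPM in the DKO-labelled libraries, and their part in the result was not tested.

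The 7 receptors gave 4 tested genes, 0 of which passed in limma-voom or in edgeR. DESeq2 called 1, and at an unadjusted p under 0.05 limma-voom had 1 higher and 1 lower. *F2rl1*, which encodes the protease-activated receptor that kallikreins are best known to switch on, stood at 18.7, 64.8 and 26.0 CPM in Nf1fl/fl;DhhCre and at 15.2, 4.19 and 5.81 CPM in the DKO-labelled libraries. Its groups did not overlap, and its log2 fold change of -2.16 (SE 0.66) had a limma-voom Benjamini-Hochberg adjusted p of 0.0598. *F2r*, the thrombin receptor, had a log2 fold change of 0.01 (SE 0.19). Both were named after their values were seen.

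Of 15 proteins cut by kallikreins, 9 were tested, 2 rose and 3 fell. *Nrg1*, a neuronal growth factor of SCs that neuropsin cuts, stood at 12.97, 18.05 and 17.2 CPM in Nf1fl/fl;DhhCre and at 49.4, 54.8 and 92.2 CPM in the DKO-labelled libraries (log2 fold change 1.99, SE 0.29, limma-voom with Benjamini-Hochberg adjusted p = 0.0106). *Mbp*, a myelin protein that neurosin cuts, had a log2 fold change of 1.32 (SE 0.14, limma-voom with Benjamini-Hochberg adjusted p = 0.00613) and completes the count of those that rose. Sensory neuron markers and myelinating SC markers, 7 of 9 higher and 0 lower, moved the same way, and their part in both values was not tested. *Mbp* is itself among these 9 myelinating SC markers and among the 7 that were higher. *Fn1*, fibronectin of the matrix, fell by 2.17 on the log2 scale (SE 0.35, limma-voom with Benjamini-Hochberg adjusted p = 0.0121). The other two were *Ephb2*, an ephrin receptor that neuropsin cuts, at -1.46 (SE 0.23, limma-voom with Benjamini-Hochberg adjusted p = 0.0119), and *Igfbp3*, a binding protein of insulin-like growth factors, at -1.44 (SE 0.28, limma-voom with Benjamini-Hochberg adjusted p = 0.0174). These 3 genes moved with the fibroblast markers, 4 of 7 of which were lower, and with the macrophage markers, 9 of 11 lower, and the part of either in their values was not tested.

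**Figure D4:**
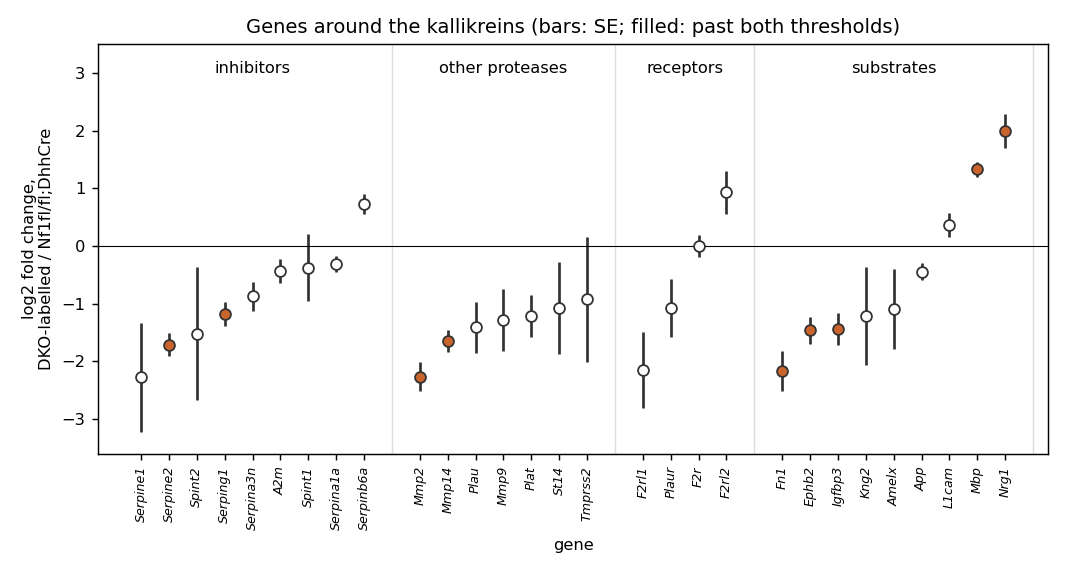
Log2 fold change (DKO-labelled over Nf1fl/fl;DhhCre) of the 29 tested genes of the 4 lists, with bars for the SE and filled points for genes past both thresholds. The filled points run from *Mmp2* at -2.27 to *Nrg1* at 1.99, and 7 of the 9 lie below 0.

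Because kallikreins are best known from epithelia, keratinocyte markers were examined beside the members. *Krt5*, *Krt14* and *Krt15*, keratins of the basal layer, and *Lor*, of the outer layer, were at 0 in all 6 libraries. Other markers of the list were present, with 50, 32 and 87 counts of *Krt10* in Nf1fl/fl;DhhCre against 51, 46 and 30 in the DKO-labelled libraries, 33, 106 and 2 of *Trp63* against 18, 123 and 24, 73, 58 and 39 of *Sbsn* against 52, 49 and 67, and 15, 15 and 11 of *Sfn* against 14, 3 and 13. The groups overlapped in each of these 4 genes, and all 8 genes were named after their values were seen. The counts covered 17 such markers. Of these, 5 were tested, and 1, the cadherin gene *Cdh1*, rose. Downward, 0 passed in limma-voom, edgeR or DESeq2, or had an unadjusted p under 0.05. The list summed to 70.5 to 82.9 CPM in Nf1fl/fl;DhhCre and to 197 to 267 CPM in the DKO-labelled libraries, of which *Cdh1* alone made 57.3 to 66.7 and 184 to 257 CPM. The other 16 markers summed to 13.2 to 16.2 CPM against 9.84 to 18.3 CPM and overlapped. *Epcam*, an adhesion gene of many epithelia, was counted 40, 2 and 66 times in Nf1fl/fl;DhhCre and 4, 0 and 0 times in the DKO-labelled libraries. *Dsp*, the desmosome gene, was counted 20, 1 and 37 times against 0, 0 and 4 times. Both were named after their values were seen, were too low to be tested and were high in Nf1fl/fl;DhhCre replicates 1 and 3 but not in replicate 2. *Dsg1a*, another desmosome gene named in the same way, had 13 counts in DKO-labelled replicate 1, the library with the 10 counts of *Klk5*, and 0 in the other five. The part of these cells in the members' values was not tested.

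Among the 10221 genes whose average log2 CPM reached 3, those whose log2 CPM ran closest to that of *Klk9* over the 6 libraries were *Gse1*, *Spred1*, *Lhx6*, *Nhsl1* and *Rin2*, with Pearson's r of 0.998, 0.998, 0.997, 0.997 and 0.996. The 6 points fall into 2 genotypes and share their libraries and depth, so r is given as a measure of likeness only. *Spred1*, which encodes a partner of neurofibromin that restrains Ras, stood at 355, 270 and 329 CPM in Nf1fl/fl;DhhCre and at 145, 116 and 151 CPM in the DKO-labelled libraries. *Lhx6*, a homeobox gene, stood at 19.77, 15.01 and 17.2 CPM against 5.02, 4.44 and 6.20 CPM. In both genes, as in *Klk9*, replicate 2 was the lowest library of each genotype. Since both were picked for likeness to *Klk9* over these libraries, nothing is read from that order.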

How the data were processed

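RNA from DRG/tumors of 6 mice was amplified (NuGEN Ovation), made into Nextera XT libraries and sequenced. Per the paper's methods and the submitters' processing notes, the authors aligned the reads to mm10 (GRCm38) with TopHat and counted them per gene with featureCounts. The deposited counts are whole numbers of reads per gene symbol, not normalized, in 1 file per library. Strandedness of the counting, annotation and multi-mapped reads are not given in the sources used here.

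Groups follow the labels. Titles and deposited column names disagree on the mouse in some libraries, within a genotype, and replicate numbers are accession order, so they pair nothing. P-values measure the spread between these mice.

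Counts were filtered with filterByExpr (minimum count 10, minimum total 15), TMM-scaled and fitted with limma-voom, genotype as the only term, over all 6 libraries (R 4.3.3, edgeR 4.0.16, limma 3.58.1, DESeq2 1.42.0), with Benjamini-Hochberg adjustment over all 15652 genes tested. DEGs had an adjusted p under 0.05 and more than 2-fold change. CPM values use the TMM factors, log2 CPM a prior count of 0.5, and exon lengths and positions GENCODE M21. Promoter windows come from RefSeq (GRCm38.p6) and all 10 members matched. The steps were tested on simulated data.

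The members, lists and tests were chosen with earlier results of these data known. The text names all members, kallikreins with a count, of each list or neighbourhood at most the 4 DEGs with the largest change, and the 5 genes most like *Klk9*. Genes named outside that rule are said to be. Alternatives were library size only, DESeq2 size factors, edgeR's quasi-likelihood test, DESeq2, keeping genes over 1 CPM in 3 libraries or more, keeping all genes with any count and each library left out. No protein sequence was used here.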

Additional observations from a re-analysis of the deposited data

How the results depend on the processing

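The log2 fold change of *Klk9*, on which the family was selected, was -4.30 to -3.61 in the 12 alternatives, a description that supports nothing. The number of members past both thresholds was 3, and it was 2 with the CPM filter, 4 with edgeR's quasi-likelihood test and with DESeq2, the fourth being *Klk8*, lower, and 4 with every gene above 0, the fourth being *Klk5*, higher. It was 1 to 5 when single libraries were left out. It was 5 without Nf1fl/fl;DhhCre replicate 2 and 1 in each of the other five. All DEGs numbered 2096, 2907 with DESeq2 and 362 to 2285 on leaving out single libraries, the lowest without Nf1fl/fl;DhhCre replicate 1. DEGs lower in the DKO-labelled libraries numbered 839, 1236 with DESeq2 and 181 to 1028. List genes past the thresholds downward went from 7 to 11 with DESeq2 and to between 5, without Nf1fl/fl;DhhCre replicate 1, and 9 on leaving out single libraries. *Fn1* and *Ephb2* were not past them without Nf1fl/fl;DhhCre replicate 1 (limma-voom Benjamini-Hochberg adjusted p = 0.0548 for each), *Igfbp3* without Nf1fl/fl;DhhCre replicate 3 (0.06) or DKO-labelled replicate 2 (0.0585), and *Serping1* without Nf1fl/fl;DhhCre replicate 2 (log2 fold change -0.93, under 2-fold). Neighbours went from 5 to 8 with DESeq2 and to between 0 and 4 on leaving out single libraries. The log2 fold change of *2310002F09Rik* turned to -0.047 with library size only and to -0.006 with DESeq2, and ran from -0.52 to 0.50 on leaving out single libraries. The cause was not tested. No paired analysis was possible because the labels carry no replicate numbers. Counts under about 10 limit *Klk4*, *Klk5*, *Klk6*, *Klk7* and *Klk14*.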
